A study of Mus musculus with 6 samples.

Results

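The STAT5 and SOCS family was followed as 10 genes, Stat5a, Stat5b, Cish and Socs1 to Socs7, out of 19938 genes with a probe set of their own on the array. The genes were taken as a named family, with earlier results of these data known, and each was read from its brightest probe set among those that the array annotation pairs with that symbol alone. The 10 genes had 14 such probe sets in all. The samples were whole thymuses of 10-day-old mice: 3 from RUNX2/MYC mice of the background strain C57BL6/CBA, which carry the CD2-Myc and CD2-Runx2 transgenes together, and 3 from wild-type (WT) C57/CBA mice without them, each labelled a separate biological replicate and hybridised to its own Affymetrix MoGene-1 array. CD2 control elements direct both transgenes to T cells, and neither transgene was measured alone. A whole thymus holds epithelium and other cells beside the thymocytes. The paper describes the RUNX2/MYC thymus at this age as premalignant, with a large polyclonal cell population and aberrant CD8-positive blasts. The groups may thus differ in their cells as well as in expression per cell. Values are the authors' log2 signals.

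STAT5A and STAT5B are transcription factors that sit inactive in the cytoplasm until a cytokine receptor and its JAK kinases phosphorylate them, after which they pair up, enter the nucleus and bind palindromic TTC and GAA half-sites. In T cells they carry signals of interleukin-2, interleukin-7, interleukin-15 and related cytokines for survival and growth. Among the genes they switch on is Cish, whose product CIS belongs with the SOCS proteins to a family of feedback inhibitors: their SH2 domain docks on phosphorylated receptors or kinases, and their SOCS box recruits a ubiquitin ligase that marks the bound protein for degradation. In developing thymocytes SOCS1 is known as a brake on interleukin-7 and common gamma chain signals.

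The labels were checked first on the transgene. Runx2 had log2 signals of 11.73, 11.78 and 11.96 on the RUNX2/MYC arrays, against 7.94, 7.94 and 7.93 in WT, for a log2 fold change of 3.89 (SE, the standard error, 0.093, limma adjusted p = 4.3e-05). The mouse Myc probe set had log2 signals of 10.51, 10.88 and 10.55 in RUNX2/MYC, against 11.00, 11.26 and 11.12 in WT, lower on all RUNX2/MYC arrays without passing the test (-0.48, limma adjusted p = 0.119). Whether it reads the MYC transgene is not given in the sources used here, so only Runx2 checks the labels. Markers of thymocytes had high signals on every array, with a mean log2 signal over 13 of them between 11.28 and 11.60 in RUNX2/MYC and between 11.56 and 11.69 in WT. Adipocyte markers stood apart on 1 array, RUNX2/MYC replicate 2, where 9 of 12 had their highest value. Across the 6 arrays the median log2 signal ran between 7.31 and 7.49, and correlations between arrays ran between 0.969 and 0.994.

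None of the 10 family genes passed the test: 0 of 10 had an adjusted p under 0.05 in limma in either direction, where 1.8% of all probe sets did (641 of 35556), with 1.68% higher (596) and 0.127% lower (45) in RUNX2/MYC. That split was 457 higher and 124 lower after cyclic loess, and 209 higher and 45 lower after 75th percentile scaling, with 0 of the 10 genes under either. It was 872 higher and 718 lower without RUNX2/MYC replicate 1, again with 0 of the 10 genes. On the deposited values the methods' t-test also called 0 of 10, either with adjusted p-values (0.548% of all probe sets) or with q-values (4.11%). At an unadjusted p under 0.05 limma gave 2 of the 10 genes, Socs1 and Socs2, both with the lower mean in RUNX2/MYC, where 21.3% of all probe sets passed that level, 9.27% with the lower and 12% with the higher mean. The arrays of the groups did not overlap for 4 of the 10 genes, Stat5a, Cish, Socs1 and Socs3, each lower on all RUNX2/MYC arrays, where 24.4% of all probe sets had no overlap, 10.1% lower and 14.3% higher. Log2 fold changes were negative for 7 of the 10 genes as deposited and after median centring, and for 9 of 10 after quantile, cyclic loess or 75th percentile scaling, which turned Socs4 and Socs7 negative. Of all probe sets 57.7% had a negative value. The median over the family was -0.17, against -0.051 over all probe sets and -0.065 over all genes.

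**Figure D1:**
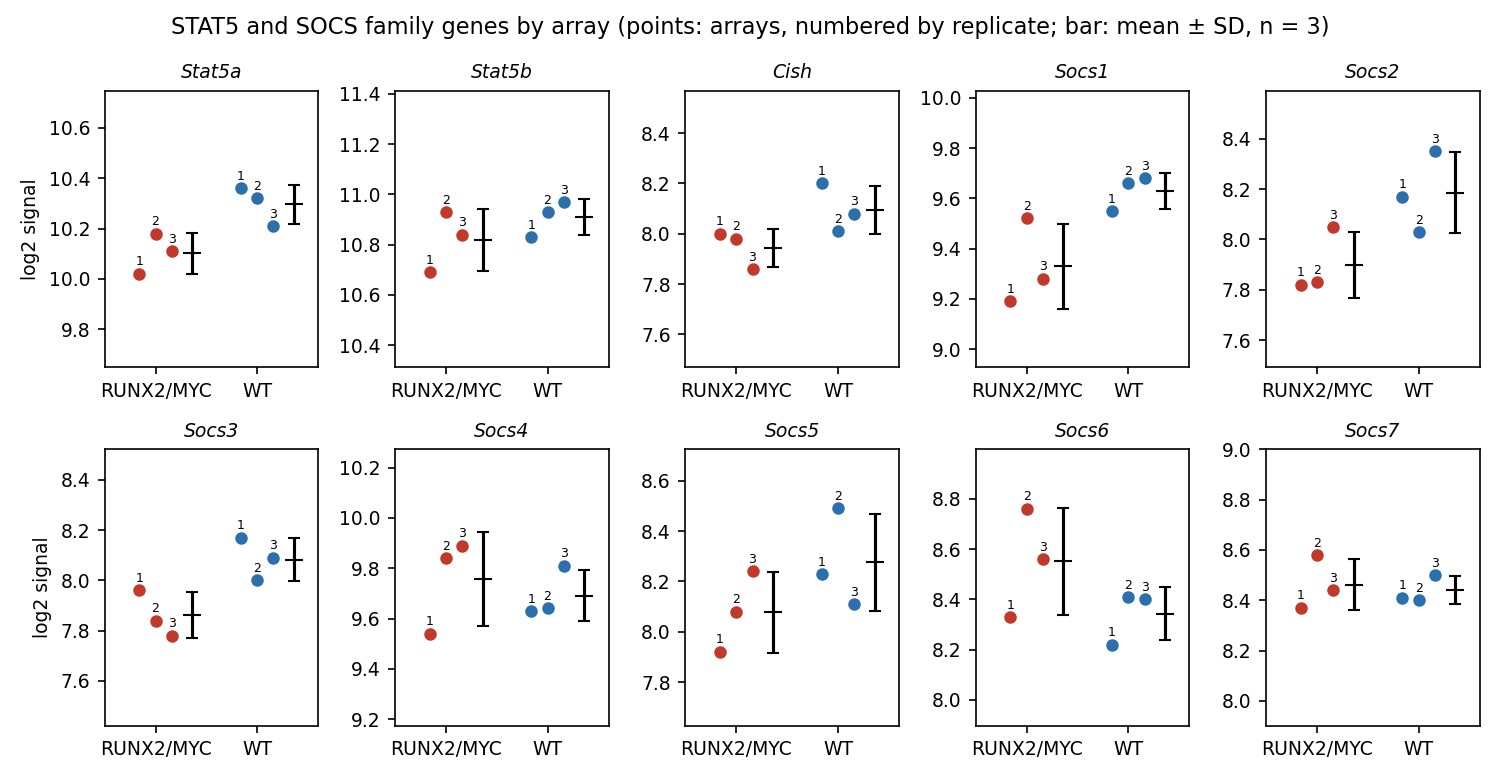
Log2 signal of each of the 10 family genes on every array, RUNX2/MYC on the left in red and WT on the right in blue, numbered by replicate, with mean ± SD (n = 3) beside the points; the panels share 1 span but not 1 origin. The groups are apart for Stat5a, Cish, Socs1 and Socs3, and interleave for the other genes.

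Cish, the classical STAT5 target of the family, had log2 signals of 8.00, 7.98 and 7.86 on the RUNX2/MYC arrays, against 8.20, 8.01 and 8.08 on the WT arrays. The lowest WT value lay only just above the highest RUNX2/MYC value, so the groups were apart by little. Means were 7.94 ± 0.075 in RUNX2/MYC and 8.10 ± 0.096 in WT (SD, n = 3 each), a log2 fold change of -0.15 (SE 0.093, limma adjusted p = 0.352). That is a change of -9.97%, with a 95% interval of -22.7% to 4.84%. An exact permutation test over the 6 arrays gave p = 0.1 (two-sided), which is the smallest that 3 against 3 arrays allow. Over 19 other ways of processing the adjusted p of Cish ran between 0.0971 and 0.698. The paper, which took q under 0.05 as significant, names Cish among the altered genes that ran opposite to its pathway predictions. On the deposited values the methods' t-test gave Cish a q-value of 0.146. The cause of that difference was not tested, and which processing made the deposited values is not settled.

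The sequence just before the Cish start is shown with that of Socs1, the gene of the family with the largest negative value, and with a site before Socs3, because these stretches were searched for the STAT element. They are from RefSeq (GRCm38.p6): 250 bases before the start of Cish (chr9:107296409-107296658, plus strand), 250 bases before the start of Socs1 (chr16:10785537-10785786, minus strand) and 29 bases before Socs3 (chr11:117969502-117969530, minus strand). Capitals mark the STAT element TTCNNNGAA.
Cish: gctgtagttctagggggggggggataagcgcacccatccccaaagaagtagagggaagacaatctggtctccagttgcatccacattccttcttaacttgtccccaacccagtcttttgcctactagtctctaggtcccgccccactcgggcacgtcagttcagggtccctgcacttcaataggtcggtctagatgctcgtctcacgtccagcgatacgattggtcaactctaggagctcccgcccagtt
Socs1: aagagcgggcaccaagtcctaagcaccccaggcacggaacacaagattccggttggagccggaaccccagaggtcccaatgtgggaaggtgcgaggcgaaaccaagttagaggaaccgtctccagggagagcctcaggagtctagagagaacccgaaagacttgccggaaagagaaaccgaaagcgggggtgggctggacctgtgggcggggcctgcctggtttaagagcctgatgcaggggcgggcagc
Socs3: gaaaccagccTTCTTAGAAgggagggggg
Of the 10 genes 6 had an entry in the promoter table, with 8 starts among them, and 4 motifs were searched on both strands of the 250 bases before each start. The STAT element TTCNNNGAA was found in 1 of the 8 windows, that of Socs3, where it lay at -154 to -146 from the start. The same letters occurred in 7.02% of 32851 such windows of the table. The E-box CACGTG bound by MYC (6.02% of windows) and the RUNX letters TGTGGT (14%) and TGCGGT (5.1%) were found in none of the 8. A match describes letters only, and letters farther from the start were not searched. The paper scored binding motifs over wider windows, on both sides of the promoter. It reports MYC and RUNX motifs enriched among the genes that ran opposite to its pathway predictions, Cish among them. The narrower search here cannot be set against that result.

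Of the STAT5 genes themselves, Stat5a had log2 signals of 10.02, 10.18 and 10.11 on the RUNX2/MYC arrays, against 10.36, 10.32 and 10.21 on the WT arrays. All RUNX2/MYC values lay under all WT values. Means were 10.10 ± 0.080 in RUNX2/MYC and 10.30 ± 0.078 in WT (SD, n = 3 each), and the log2 fold change of -0.20 (SE 0.090) had an adjusted p of 0.259 from limma. Its 95% interval was -24.7% to 1.23%, and the exact permutation test gave p = 0.1. Stat5b, its close paralog on the same chromosome, had log2 signals of 10.69, 10.93 and 10.84 in RUNX2/MYC, against 10.83, 10.93 and 10.97 in WT. These overlapped, with RUNX2/MYC replicate 1 the lowest, and the log2 fold change was -0.092 (SE 0.098, limma adjusted p = 0.567), or -0.026 without that array. Within each array the log2 signal of Stat5a minus that of Stat5b was -0.67, -0.75 and -0.73 in RUNX2/MYC, against -0.47, -0.61 and -0.76 in WT. The difference of -0.10 between the groups did not exceed the spread of the arrays (p = 0.4, two-sided exact permutation test). Probe sets of paralogs this alike can share signal, so the split between the pair is uncertain.

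Socs1, whose product inhibits JAK kinases directly, had log2 signals of 9.19, 9.52 and 9.28 on the RUNX2/MYC arrays, against 9.55, 9.66 and 9.68 on the WT arrays. RUNX2/MYC replicate 2 came close to WT replicate 1, and the other RUNX2/MYC arrays lay well below. Means were 9.33 ± 0.17 in RUNX2/MYC and 9.63 ± 0.072 in WT (SD, n = 3 each), a log2 fold change of -0.30 (SE 0.11, limma adjusted p = 0.201). The change of -18.7% had a 95% interval of -32.2% to -2.51%, the unadjusted p was 0.0308, and the exact permutation test gave p = 0.1. Without RUNX2/MYC replicate 1 the log2 fold change was -0.23.

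Socs3, best known as an inhibitor of signals through gp130, had log2 signals of 7.96, 7.84 and 7.78 in RUNX2/MYC, against 8.17, 8.00 and 8.09 in WT. The groups did not overlap, although RUNX2/MYC replicate 1 and WT replicate 2 nearly met. The log2 fold change was -0.22 (SE 0.093, limma adjusted p = 0.235), and the exact permutation test gave p = 0.1. A dimmer probe set of Socs3 had log2 signals of 6.07, 5.80 and 5.91 in RUNX2/MYC, against 6.16, 6.25 and 5.90 in WT. Those overlapped, with a log2 fold change of -0.17 (limma adjusted p = 0.411).

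Socs2, a STAT5 target that restrains growth hormone signals, had log2 signals of 7.82, 7.83 and 8.05 on the RUNX2/MYC arrays, against 8.17, 8.03 and 8.35 on the WT arrays. The groups overlapped by 1 pair, since RUNX2/MYC replicate 3 exceeded WT replicate 2. The log2 fold change was -0.29 (SE 0.12, unadjusted p = 0.0457, limma adjusted p = 0.227), and the exact permutation test gave p = 0.2. The number of this brightest probe set falls among probe sets of another chromosome: 37 of its 40 nearest annotated neighbours by number pair with genes of chromosome 12, while RefSeq places Socs2 on chromosome 10. The second probe set, whose neighbours lie on chromosome 10 in 38 of 40 cases, had log2 signals of 7.73, 7.56 and 7.75 in RUNX2/MYC, against 7.92, 7.82 and 7.98 in WT. Here the groups did not overlap, and the log2 fold change was -0.23 (limma adjusted p = 0.236, exact permutation p = 0.1).

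**Figure D2:**
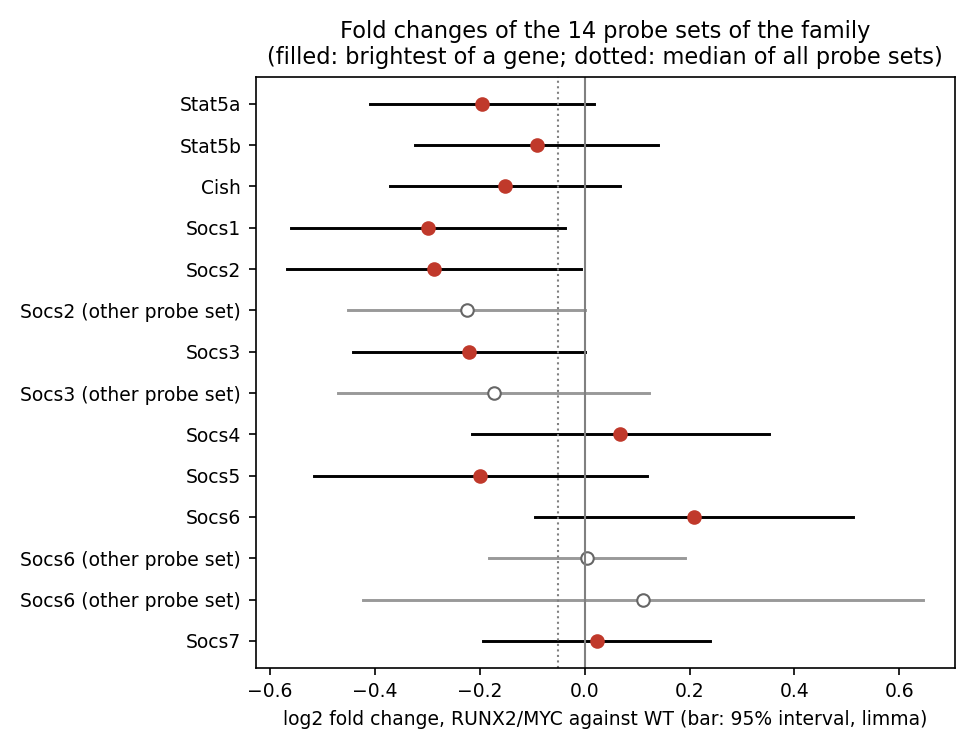
Log2 fold change of RUNX2/MYC against WT with its 95% interval for the 14 probe sets of the 10 genes, filled for the brightest probe set of a gene and open for the others; the dotted line is the median of all probe sets (-0.051). The intervals of Socs1 and Socs2 at their brightest probe sets lie below 0 without adjustment, and those of the other 8 genes hold 0.

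For the remaining SOCS genes the groups overlapped. Socs4 had log2 signals of 9.54, 9.84 and 9.89 in RUNX2/MYC, against 9.63, 9.64 and 9.81 in WT, with a log2 fold change of 0.067 (limma adjusted p = 0.733). RUNX2/MYC held both the lowest and the highest value. Socs5, an inhibitor of interleukin-4 and epidermal growth factor receptor signals, had log2 signals of 7.92, 8.08 and 8.24 in RUNX2/MYC, against 8.23, 8.49 and 8.11 in WT, with a log2 fold change of -0.20 (limma adjusted p = 0.385), or -0.093 without WT replicate 2. Its highest value was that of WT replicate 2, and RUNX2/MYC replicate 3 lay above WT replicates 1 and 3. Socs7 had log2 signals of 8.37, 8.58 and 8.44 in RUNX2/MYC, against 8.41, 8.40 and 8.50 in WT, with a log2 fold change of 0.023 (limma adjusted p = 0.887). The WT arrays lay inside the range of the RUNX2/MYC arrays.

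Socs6, which binds KIT and related receptors, had the largest positive value of the family. Its log2 signals were 8.33, 8.76 and 8.56 on the RUNX2/MYC arrays, against 8.22, 8.41 and 8.40 on the WT arrays. RUNX2/MYC replicates 2 and 3 lay above WT and replicate 1 lay among the WT arrays, so the groups overlapped. The log2 fold change was 0.21 (SE 0.13, limma adjusted p = 0.354, exact permutation p = 0.3). It was 0.32 without RUNX2/MYC replicate 1 and 0.11 without RUNX2/MYC replicate 2. All 40 annotated neighbours of this probe set by number pair with genes of chromosome 7, while RefSeq places Socs6 on chromosome 18. The brighter of the other probe sets, among whose neighbours 20 of 40 lie on chromosome 18, had log2 signals of 7.50, 7.86 and 8.25 in RUNX2/MYC, against 7.67, 7.50 and 8.10 in WT, with a log2 fold change of 0.11 (limma adjusted p = 0.768). The dimmest probe set stayed between 4.26 and 4.35 on all arrays.

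Over the 10 genes at their brightest probe sets, the 95% intervals of the fold in RUNX2/MYC ran between 0.675 and 1.43, with the lower bound from Socs2 and the upper from Socs6, the genes whose brightest probe sets are numbered among another chromosome. The probe set of Socs6 numbered among chromosome 18 reached a higher upper bound, 1.56. RUNX2/MYC replicate 1 was the lowest of the 6 arrays for 7 of the 10 genes and the highest for 0. The mean log2 signal over the family was 8.78, 8.95 and 8.90 on the RUNX2/MYC arrays, against 8.98, 8.99 and 9.02 on the WT arrays. Without RUNX2/MYC replicate 1 the median log2 fold change of the family was -0.14, and 7 of 10 genes were still negative. Several marker lists also had lower mean signals in RUNX2/MYC, with 1 gene in them, Dsc3, past the test. Of 13 thymocyte markers 0 passed, but Cd4, the co-receptor (log2 fold change -0.74, limma adjusted p = 0.091), Rag1 and Rag2, the recombinase genes (-0.62 and -0.55, limma adjusted p = 0.0963 and 0.211), and Dntt, the terminal transferase (-0.52, limma adjusted p = 0.139), were each lower on all RUNX2/MYC arrays. RUNX2/MYC replicate 1 was the lowest array for each of these 4 genes. Cd3d, by contrast, was higher on all RUNX2/MYC arrays (0.32, limma adjusted p = 0.18). Of the 13 thymocyte markers 9 had negative and 4 positive values, and their median log2 fold change was only -0.031. The mean log2 signal of 14 thymic epithelium markers was 9.14, 9.21 and 9.26 in RUNX2/MYC, against 9.45, 9.49 and 9.60 in WT, and all 14 had a negative log2 fold change, under each scaling too. Among the defining genes Foxn1 had a log2 fold change of -0.24 (limma adjusted p = 0.17) and Krt8 of -0.53 (limma adjusted p = 0.0544), and Dsc3 passed the test at -0.56 (limma adjusted p = 0.0428). Myeloid and dendritic markers had mean log2 signals of 8.14, 8.16 and 8.11 in RUNX2/MYC, against 8.35, 8.25 and 8.27 in WT, and 0 of 17 passed the test, with 15 negative as deposited and 12 after median centring. B cell markers had mean log2 signals of 7.29, 7.35 and 7.23 in RUNX2/MYC, against 7.52, 7.62 and 7.40 in WT, and 0 of 8 passed, with all 8 negative as deposited and 7 after quantile or cyclic loess scaling. The part of these cells in the family's values was not tested, and in whole thymus fewer cells of a type and less RNA per cell cannot be told apart.

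**Figure D3:**
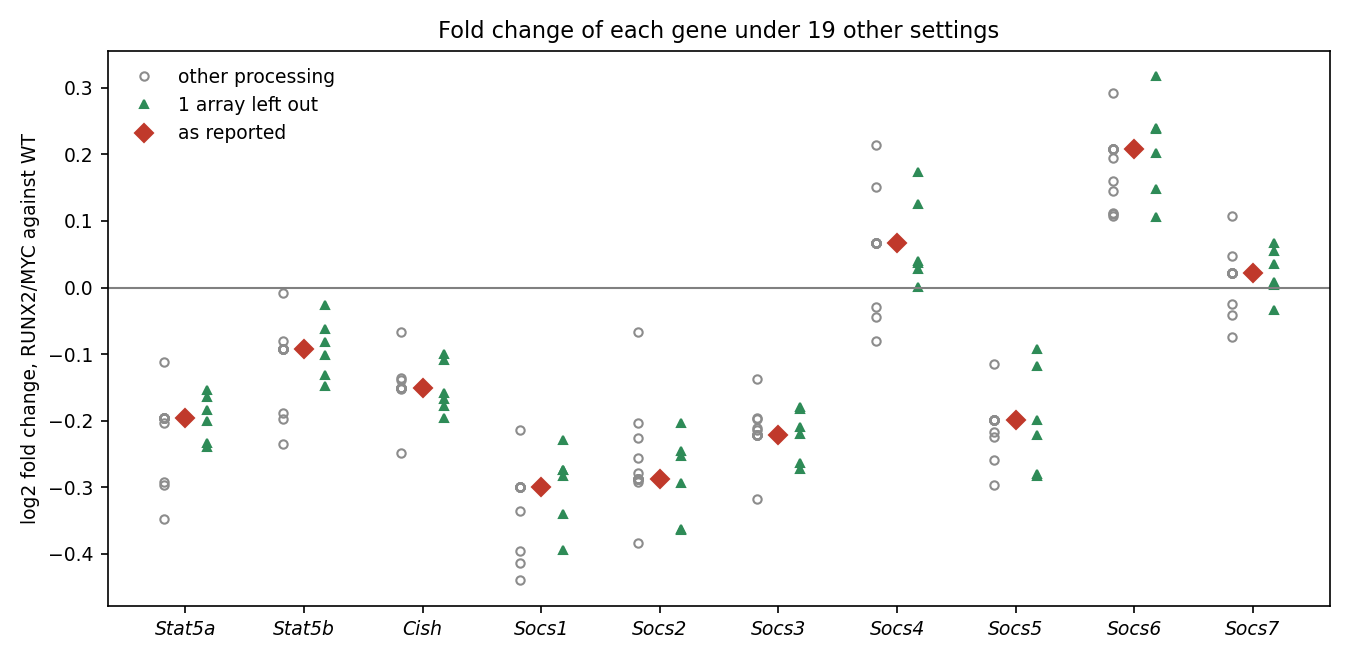
Log2 fold change of each family gene as reported (red), under other ways of processing (open circles) and with 1 array left out (green triangles), for 19 alternatives in all. Stat5a, Stat5b, Cish, Socs1, Socs2, Socs3 and Socs5 stay below 0 and Socs6 above 0 throughout, while Socs4 and Socs7 change sign.

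The genes whose log2 signal followed that of Cish most closely over the 6 arrays, out of 10796 genes at or above the median signal, were Kcnh3 (Pearson r = 0.98), a potassium channel gene, Hey1 (0.98), a Notch target, Lrrk1 (0.97), Cpne2 (0.97) and Bmp7 (0.97). All had their highest value on WT replicate 1 and their lowest on RUNX2/MYC replicate 3, as Cish did. Hey1, for example, had log2 signals of 8.36, 8.29 and 8.06 in RUNX2/MYC, against 8.57, 8.33 and 8.44 in WT, and none of the 5 passed the test. With 6 arrays and so many genes, 58 genes had r above 0.9, so the list is a description of these arrays.

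Upstream of STAT5, 3 receptor genes passed the test, and they did not move the same way. Of 17 receptor genes measured 2 rose and 1 fell, the other 14 did not pass, and the median log2 fold change was -0.11. Epor, the erythropoietin receptor, had log2 signals of 8.96, 9.09 and 9.03 in RUNX2/MYC, against 7.52, 7.74 and 7.64 in WT, and rose by 1.39 on the log2 scale (SE 0.094, limma adjusted p = 0.00971). Il2rb, the beta chain shared by the interleukin-2 and interleukin-15 receptors, had log2 signals of 9.47, 9.52 and 9.51 in RUNX2/MYC, against 8.25, 8.16 and 8.54 in WT, and rose by 1.18 (SE 0.12, adjusted p = 0.0141). For both genes every RUNX2/MYC array lay far above every WT array, and the RUNX2/MYC arrays lay close together. Il2ra, the alpha chain that gives the interleukin-2 receptor its high affinity and is itself a STAT5 target, had log2 signals of 10.02, 10.22 and 9.99 in RUNX2/MYC, against 10.72, 10.82 and 11.07 in WT. It fell by 0.79 on the log2 scale (SE 0.12, limma adjusted p = 0.0328). In whole thymus the genes of the alpha and beta chains thus changed in opposite directions. Which cells of the thymus made each transcript was not tested. Il2rg, the common gamma chain, has no probe set paired with it alone and was not analysed here.

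Markers of erythroid and natural killer cells, which also use these receptors, are given beside them. The mean log2 signal of 5 erythroid markers was 8.03, 7.42 and 7.34 in RUNX2/MYC, against 7.52, 7.30 and 7.12 in WT, and 0 of 5 passed the test. Alas2, the erythroid enzyme of haem synthesis, had log2 signals of 10.91, 9.98 and 9.36 in RUNX2/MYC, against 9.21, 8.55 and 8.99 in WT (log2 fold change 1.17, limma adjusted p = 0.169). Slc4a1, the anion exchanger of red cells, had log2 signals of 9.03, 8.08 and 7.94 in RUNX2/MYC, against 7.89, 7.83 and 7.41 in WT (log2 fold change 0.64, limma adjusted p = 0.259). Both were higher on all RUNX2/MYC arrays, whereas Klf1, Gata1 and Epb42 overlapped between the groups (-0.087, -0.25 and -0.053). The mean over 8 natural killer cell markers was 7.16, 7.07 and 7.06 in RUNX2/MYC, against 7.04, 7.00 and 7.09 in WT. Of these Nkg7, a granule membrane protein also made by cytotoxic T cells, rose by 0.89 (limma adjusted p = 0.0403), and Ncr1, the defining receptor, had a log2 fold change of -0.31 (limma adjusted p = 0.162). Ncr1 was dim, between 5.57 and 6.09 on all arrays, under the 25th percentile of all probe sets (6.15). Gzma was higher and Itga2 lower on all RUNX2/MYC arrays (0.25 and -0.37, limma adjusted p = 0.224 and 0.176). Klrk1, dim like Ncr1, was lower on all RUNX2/MYC arrays (-0.21, limma adjusted p = 0.224). Of the 8 markers 5 had positive and 3 negative values, but the positive values of Klrb1c and Eomes were near 0 (2e-05 and 0.011). The part of such cells in the rises of Epor and Il2rb was not tested.

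**Figure D4:**
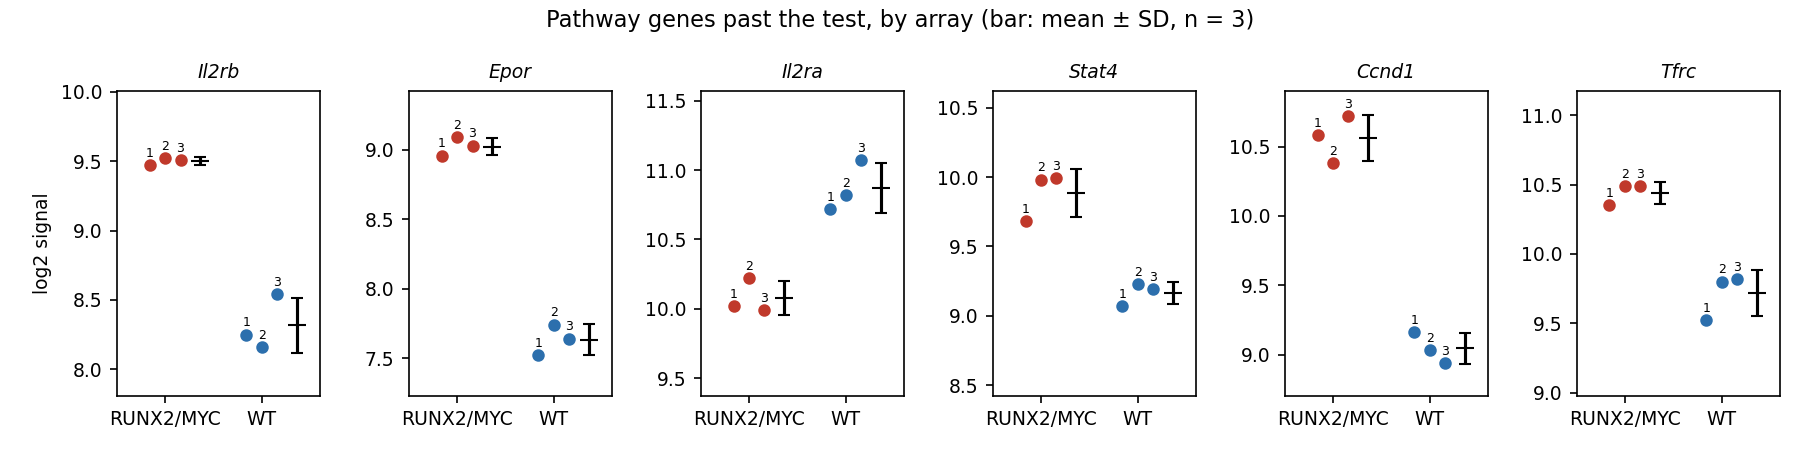
Log2 signal by array of the 6 genes of the pathway lists with an adjusted p under 0.05, RUNX2/MYC on the left and WT on the right, with mean ± SD (n = 3). Il2rb, Epor, Stat4, Ccnd1 and Tfrc are higher on all RUNX2/MYC arrays and Il2ra is lower on all of them.

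Of the cytokine genes that signal through STAT5, 0 of 15 measured passed the test in either direction, and their median log2 fold change was -0.075. Il2, Il3, Il5, Il21, Tslp, Csf2, Epo and Prl had group means under the 25th percentile of all probe sets (log2 6.15). The absence of calls therefore says little about them. The largest absolute values of the 15 genes were those of Il7, the thymic epithelium's survival factor for early thymocytes, and of the growth hormone gene Gh (-0.28, limma adjusted p = 0.22). Il7 had log2 signals of 6.85, 6.56 and 6.99 in RUNX2/MYC, against 7.01, 7.16 and 7.38 in WT, with a log2 fold change of -0.39 (limma adjusted p = 0.207). WT replicate 3 was the highest array for Il7 and also for 11 of the 14 thymic epithelium markers. Their part in the Il7 value was not tested.

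Between receptor and STAT5 stand the JAK kinases, and of 7 kinase and other STAT genes measured 1 rose and 0 fell. Stat4, the transcription factor of interleukin-12 signals, had log2 signals of 9.68, 9.98 and 9.99 in RUNX2/MYC, against 9.07, 9.23 and 9.19 in WT, and rose by 0.72 (SE 0.11, limma adjusted p = 0.034). Its groups were clearly apart, with RUNX2/MYC replicate 1 the lowest of its group. Jak3 has no probe set paired with it alone and was not analysed here.

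**Figure D5:**
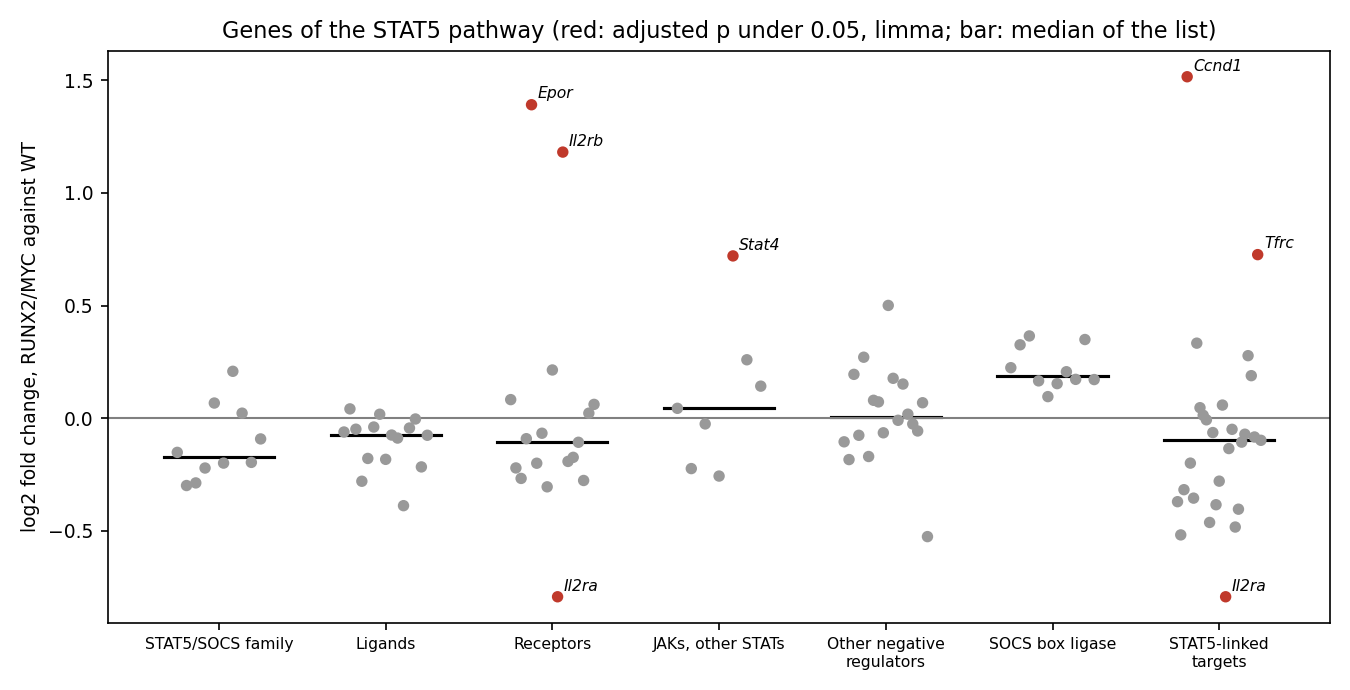
Log2 fold changes of RUNX2/MYC against WT for the family and for each list of pathway genes, a point per gene, with bars at list medians and red for an adjusted p under 0.05 in limma. The family median is -0.17, the median of the SOCS box ligase list is 0.19, and single genes of the receptor, STAT and target lists stand far from the rest.

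Regulators that act beside the SOCS proteins divided evenly: of 18 phosphatases, PIAS proteins, adaptors and others 0 passed the test, 9 were positive and 9 negative as deposited (4 to 13 negative over the other scalings). The largest absolute values were those of Usp18, an inhibitor of interferon receptor signals, at -0.53 (limma adjusted p = 0.0713), and of Ptpn2, a phosphatase of JAK and STAT proteins including STAT5, at 0.50 (limma adjusted p = 0.0709). Ptpn2 had log2 signals of 9.38, 9.60 and 9.37 in RUNX2/MYC, against 8.91, 8.87 and 9.07 in WT, and Usp18 had log2 signals of 9.11, 9.29 and 9.05 in RUNX2/MYC, against 9.75, 9.52 and 9.76 in WT. Neither gene overlapped between the groups, and neither passed the test.

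The genes listed around the ubiquitin ligase that the SOCS box recruits had positive values where most of the SOCS genes had negative ones. Besides Cul5, Rnf7, Elob and Eloc the list held Cul2, Rbx1, Ube2f, Nedd8, Dcun1d1 and Arih2, so it was wider than that ligase. All 10 measured had a positive log2 fold change as deposited (9 of 10 after cyclic loess or 75th percentile scaling), with a median of 0.19 and a range of 0.096 to 0.37, and 0 of 10 passed the test. The median depended on the scaling: 0.066 after cyclic loess, 0.093 after 75th percentile, 0.12 after quantile scaling and 0.27 after median centring. Cul5, the scaffold of the SOCS box ligase, had log2 signals of 9.21, 9.54 and 9.54 in RUNX2/MYC, against 8.80, 9.02 and 9.39 in WT, with a log2 fold change of 0.37 (limma adjusted p = 0.267). Rnf7, its RING partner, had a log2 fold change of 0.35 (limma adjusted p = 0.311). In both genes WT replicate 3 lay within the range of RUNX2/MYC. RUNX2/MYC replicate 2 was the highest array for 6 of these 10 genes.

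Of 27 genes linked to STAT5 as targets, 2 rose and 1, Il2ra, fell, 19 had negative values as deposited (14 after median centring, 22 after 75th percentile scaling), and the median was -0.098. Ccnd1, the gene of cyclin D1, had log2 signals of 10.58, 10.38 and 10.72 in RUNX2/MYC, against 9.16, 9.03 and 8.94 in WT, and rose by 1.52 on the log2 scale (limma adjusted p = 0.0137). Tfrc, the transferrin receptor for iron uptake, had log2 signals of 10.35, 10.49 and 10.49 in RUNX2/MYC, against 9.52, 9.80 and 9.82 in WT, and rose by 0.73 (limma adjusted p = 0.0318). Both genes were higher on all RUNX2/MYC arrays than on any WT array. Over the 93 genes of the pathway lists, 5 rose and 1 fell. Whether the 6 calls held depended on which array was left out. Leaving out replicate 2 or 3 of RUNX2/MYC, or replicate 1 or 2 of WT, ended all 6 (limma adjusted p between 0.0689 and 0.17). Only 3, 3, 4 and 3 probe sets then passed in all. Without RUNX2/MYC replicate 1 all 6 still passed (limma adjusted p between 0.0262 and 0.0461). Without WT replicate 3 all but Stat4 passed (limma adjusted p = 0.056 for Stat4). The directions of all 6 genes stayed the same under the 19 alternatives.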

How the data were processed

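The deposited values are log2 signals per probe set, which the authors made from Affymetrix MoGene-1 arrays. The submitters' processing notes name RMA and Affymetrix Expression Console 1.4, whereas the methods name Partek and an adjustment for GC content ahead of background correction, and which of them made the table is not settled. The genome build of the probe annotation is not given in the sources used here. Of 35556 probe sets the platform annotation pairs 21789 with 1 symbol, 1621 with several and 12146 with none, and Elob and Eloc were matched through older symbols. The Runx2 probe set was named by its number in the study's supplementary list. Groups were compared with limma 3.58.1 in R 4.3.3 (lmFit and eBayes, without covariates, Benjamini-Hochberg adjustment over all probe sets, threshold 0.05), and single values by an exact permutation test over the 6 arrays. The fit was tested on simulated data. No microarray value carries counts, so the number of arrays limits the precision.

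Named were all 10 family genes, every pathway gene past the threshold or otherwise the 2 of largest absolute log2 fold change in a list, the 5 genes most correlated with Cish, and marker genes that bear on a result. The family and the lists were chosen with earlier results of these data known, so their counts are descriptions. Alternatives were 4 scalings, a filter on probe sets under the 25th percentile of signal, probe sets of 1 gene only, trend and robust moderation, array weights, the methods' t-test (ANOVA of the groups) with adjusted p or q-values, the replicate number as a block, the mean of a gene's probe sets, each array left out and, chosen after seeing the data, the probe sets of Socs2 and Socs6 numbered among their own chromosome.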

Additional observations from a re-analysis of the deposited data

How the results depend on the processing

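With 3 arrays a group only large or very even differences could pass. Over 19 alternatives the count of family genes past the threshold stayed at 0, except with array weights, which gave 1 higher (Socs4, 0.21, adjusted p = 0.0283) and 4 lower (Stat5a, Socs1, Socs3 and Socs5, adjusted p between 0.00642 and 0.0446). That setting called 59.9% of all probe sets (21302 of 35556), and the weight estimate did not converge. The family's median log2 fold change ran between -0.27 (75th percentile) and -0.090 (median centring), and each array left out gave -0.18 to -0.14; the median of all probe sets was -0.15 and 0.033 under those scalings. Signs turned for Socs4 under quantile (-0.044), cyclic loess (-0.080) and 75th percentile scaling (-0.029), and for Socs7 under the same settings (-0.025, -0.042 and -0.074) and without RUNX2/MYC replicate 2 (-0.034, with 0.066 the highest value of Socs7 with 1 array left out). The cause was not tested.

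Pathway genes lower, 1 as reported, numbered 0 under median centring and the methods' t-test with adjusted p, 2 with q-values, 3 with quantile scaling, 4 with cyclic loess and with probe sets of 1 gene only, 5 with the mean of a gene's probe sets and 19 with array weights. Pathway genes higher, 5 as reported, numbered 3 with 75th percentile scaling, 2 with the methods' t-test with adjusted p and 26 with array weights. Leaving out 1 array gave 0 to 5 higher, 0 to 2 lower and 0 family genes. Il2ra did not pass under median centring (limma adjusted p = 0.0561), nor Stat4 and Tfrc under 75th percentile scaling (0.0559 and 0.0538), nor Il2rb, Il2ra, Stat4 and Tfrc by the methods' t-test with adjusted p (0.0617 to 0.106). All probe sets past the threshold numbered 641 as reported, 254 with the 75th percentile, 963 with median centring, 1146 with trend and robust moderation, 1206 with the mean of probe sets, 1385 with probe sets of 1 gene, 195 and 1460 by the methods' t-test with adjusted p and q, and 1590 without RUNX2/MYC replicate 1.

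Same-numbered arrays deviated together for replicates 1 and 3 (correlations 0.50 and 0.61) but not for replicate 2 (-0.15), and RUNX2/MYC replicate 2 followed WT replicate 3 best (0.21). Deviations within a group depend on each other, so these correlations cannot decide whether the numbers pair the samples. The methods name littermate-matched controls, but the sample titles name no pairs, and the replicate number was used as a block only as an alternative. With the replicate block 2417 probe sets passed, pathway genes numbered 3 lower, 0 family genes passed, and the smallest adjusted p in the family was 0.0993 (Socs2).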
